A study of Homo sapiens with 16 samples.

Results

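The 10 genes described here are the 8 human SMAD genes (SMAD1, SMAD2, SMAD3, SMAD4, SMAD5, SMAD6, SMAD7 and SMAD9) and the corepressor genes SKI and SKIL. They were chosen by name, as signal transducers and corepressors of one pathway, with earlier results of these data known, and the choice used no threshold on their values. Each was found once among the 60649 gene identifiers of the count table, and all 10 passed the filter on low counts that left 19103 genes for testing. Their counts lay between 175 reads (SMAD9) and 16930 reads (SMAD3) in a library.

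SMAD proteins carry signals of the TGF-beta family from the receptors at the cell surface to the nucleus. SMAD2 and SMAD3 are phosphorylated by the receptors of TGF-beta, activins and GDF11, SMAD1, SMAD5 and SMAD9 by the receptors of bone morphogenetic proteins (BMPs), and both branches join SMAD4 to bind DNA. SMAD6 and SMAD7 inhibit the receptors and the receptor-regulated SMADs and are themselves target genes of the pathway, while SKI and SKIL bind the SMAD complexes on DNA and recruit repressors of transcription.

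Poly(A) RNA was sequenced from ASC52telo, a line of human adipose-derived mesenchymal stem cells (MSCs) immortalized with telomerase, in 16 libraries with 4 biological replicates in each of 4 groups. Young MSCs had no mitomycin C (MmC-/GDF11-), or none but received the cytokine GDF11 at 10 ng/mL over 10 days (MmC-/GDF11+). Senescent MSCs had been exposed to 1.5 µg/mL of mitomycin C, a DNA alkylating agent, for 18 h and were kept for the same 10 days without GDF11 (MmC+/GDF11-) or with it (MmC+/GDF11+). All groups were of this 1 line, so the replicates show the spread between cultures of 1 donor's cells and not between donors.

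Libraries held between 71275337 and 144204979 counted reads (median 86044010). CDKN1A, which encodes the cell cycle inhibitor p21, was higher after MmC without GDF11 (log2 fold change 2.74, edgeR adjusted p = 3.89e-06), while the proliferation gene MKI67 fell by 1.70 on the log2 scale (edgeR adjusted p = 0.00232). The 6 MSC markers had medians between 291 (PDGFRB) and 2185 (ITGB1) CPM (read counts scaled to the size of the library, here its total counts). The 10 markers of blood, endothelial and epithelial cells had medians of up to 60.3 (KRT8), and their summed level was between 86.7 and 130 in MmC-/GDF11- libraries, 97.0 and 132 in MmC-/GDF11+ libraries, 72.3 and 76.0 after MmC alone, and 69.8 and 79.1 after both treatments. Without KRT8 the sum lay between 19.1 and 37.7 in all groups, while single markers moved with MmC in both directions. The group means of these markers are given on library sizes scaled by the TMM method instead. Without GDF11 they rose from 5.96 to 14.4 CPM for PECAM1, from 1.69 to 2.92 for CD14 and from 0.939 to 1.48 for VWF. They fell from 2.42 to 0.850 for CDH5 and from 88.8 to 43.1 for KRT8, and all of these changes were past the edgeR threshold. The epithelial marker EPCAM was at or near 0 in every library, with at most 0.058 CPM on total counts. The part of these markers and of the cell cycle genes in the results on the SMAD genes was not tested. RNA of whole cultures does not tell fewer cells that express a gene from less of its RNA per cell.

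SMAD proteins bind short DNA words, and the genes of the inhibitors and corepressors are known targets of the pathway, so the sequence before their start sites is shown here for the 3 members with the largest changes after MmC. The RefSeq windows of build GRCh38.p14 were searched over the 250 bases before each annotated start, on both strands, for the palindrome GTCTAGAC, for the SMAD box CAGAC and for the BMP SMAD element GGCGCC. Matches of different words can share an end base, and none did in the windows shown. These windows are printed from 5′ to 3′ on the strand of the gene, with matches in capitals.
SMAD6 (chr15:66701986-66702235, plus strand): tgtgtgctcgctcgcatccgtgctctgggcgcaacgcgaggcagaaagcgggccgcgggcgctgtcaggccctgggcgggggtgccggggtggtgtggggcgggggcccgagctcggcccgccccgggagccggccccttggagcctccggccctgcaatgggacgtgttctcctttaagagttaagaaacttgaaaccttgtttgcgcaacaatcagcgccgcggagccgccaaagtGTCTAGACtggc
SMAD7 (chr18:48950966-48951215, minus strand): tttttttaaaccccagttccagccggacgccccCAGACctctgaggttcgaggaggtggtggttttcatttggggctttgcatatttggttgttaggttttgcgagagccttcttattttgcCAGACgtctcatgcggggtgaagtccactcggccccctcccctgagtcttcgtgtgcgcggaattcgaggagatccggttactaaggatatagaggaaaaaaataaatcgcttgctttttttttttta
SKIL (chr3:170357465-170357714, plus strand): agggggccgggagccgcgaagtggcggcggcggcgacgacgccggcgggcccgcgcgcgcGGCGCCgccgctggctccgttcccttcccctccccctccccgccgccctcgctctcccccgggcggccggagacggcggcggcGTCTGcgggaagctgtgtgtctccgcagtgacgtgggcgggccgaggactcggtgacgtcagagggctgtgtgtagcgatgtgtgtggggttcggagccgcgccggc
The SMAD6 window held 1 palindrome, near its 3′ end, and neither of the other words. This palindrome occurred in 64 of 35116 windows (0.182%). The SMAD7 window printed here, 1 of 3 annotated for that gene, held 2 SMAD boxes. It had the most matches of the 3, as the others held 1 and 0 SMAD boxes and neither of the other words. The SKIL window held 1 SMAD box, on the opposite strand, and 1 BMP SMAD element. The SMAD box was in 6 of the 20 windows of 9 members and in 38% of all windows, and the BMP SMAD element was in 7 of the 20 and in 16.4% of all. RefSeq gave no window for SKI. A match describes the letters and does not show binding.

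Levels of the 10 genes are given as CPM on library sizes scaled by the TMM method. Between genes they are compared only per kilobase, with the length taken as all annotated exons of the gene. In MmC-/GDF11- the highest levels per kilobase were those of SKI (16.3 ± 1.25, SD, n = 4) and SMAD3 (15.4 ± 1.07), whose ranges overlapped, and SMAD5 followed at 9.60 ± 1.26. SMAD6 (3.44), SMAD7 (3.23), SMAD1 (3.06), SMAD4 (2.85) and SKIL (2.74) were close together, each overlapping its neighbour in this order. SMAD2 lay below all of these at 2.07 ± 0.110, and SMAD9 was lowest at 0.718 ± 0.145. The 2 transducers of the GDF11 branch thus differed in RNA level per kilobase, with SMAD3 at 7.50 ± 0.897 times SMAD2. By the length of the canonical transcript, an alternative added after the values were seen, the ratio was 11.0, SMAD3 stood above SKI without overlap, and SMAD1 and SMAD4 stood above SMAD7. The exons of SMAD2 sum to 36426 bases, the most of the 10 genes, and its canonical transcript has 34626 bases. Both ratios of SMAD3 to SMAD2 thus rest on this long annotation. Whether these cells use its full length was not tested.

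After MmC alone the order changed in the middle. SMAD3 (12.3 ± 1.21) and SKI (12.3 ± 2.52) were the highest, then SMAD5 (9.18 ± 0.588), SMAD7 (6.82 ± 2.58) and SKIL (6.13 ± 2.06), where the ranges of SMAD5 and SMAD7 and of SMAD7 and SKIL overlapped. SMAD2 (1.98), SMAD4 (1.97) and SMAD1 (1.71) followed, and SMAD6 (0.871 ± 0.119) had moved from the fourth place to the ninth, next to SMAD9 (0.446 ± 0.193), whose range overlapped that of SMAD6 in this group. Per kilobase of the canonical transcript, SMAD6 was also ninth after MmC alone but did not overlap SMAD9.

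**Figure D1:**
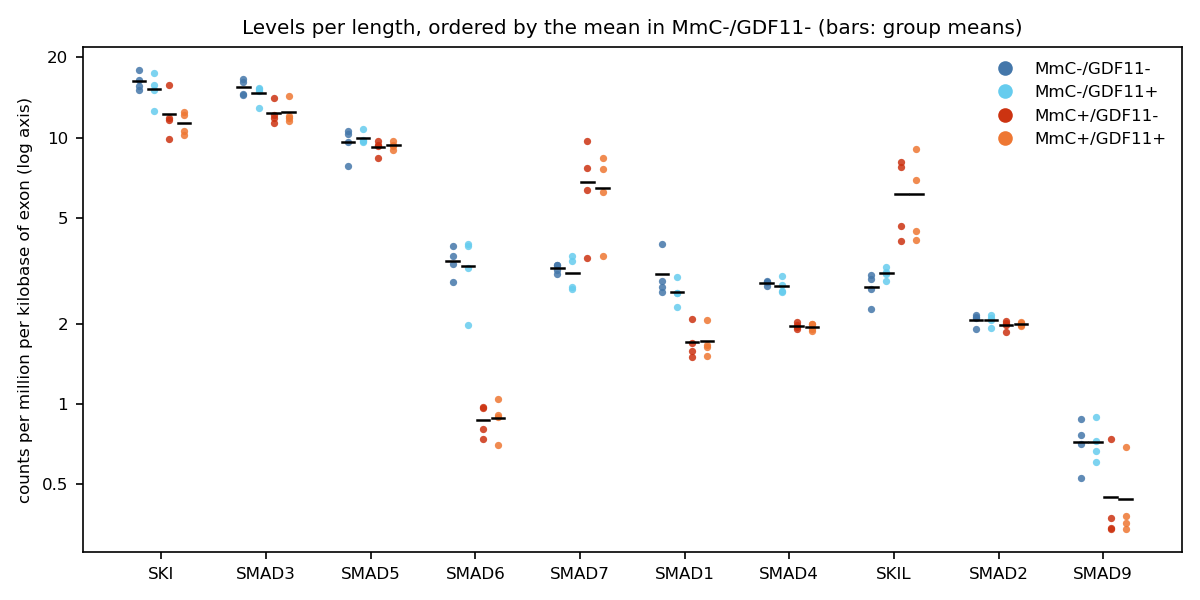
Level of each gene in each library in CPM per kilobase of exon on a log axis, ordered by the mean in MmC-/GDF11-; colours mark the 4 groups, points are libraries and bars are group means. SMAD6 moves from 3.44 to 0.871 and SMAD7 from 3.23 to 6.82 between the MmC-/GDF11- and MmC+/GDF11- means.

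MmC was compared with no MmC by edgeR's quasi-likelihood test over all 19103 genes, with Benjamini-Hochberg adjustment at 0.05, once without and once with GDF11, to see what the senescence treatment did to the pathway's transducers. Without GDF11, SMAD7 and SKIL were higher and SMAD1, SMAD3, SMAD4, SMAD6 and SKI were lower, while SMAD2, SMAD5 and SMAD9 did not pass. With GDF11, SMAD7 and SKIL were again higher and SMAD1, SMAD4, SMAD6, SMAD9 and SKI were lower, while SMAD2, SMAD3 and SMAD5 did not pass. The largest change in both was the fall of SMAD6. Among all tested genes, 22.9% were called higher and 22.4% lower without GDF11, and 23.4% higher and 23.3% lower with GDF11, so 2 higher of 10 was near the background and 5 lower of 10 above it, in a list of few genes. All 4 MmC+ libraries lay on one side of all 4 MmC- libraries for 6 of 10 members without GDF11 (37.3% of all genes) and 6 of 10 with GDF11 (41.5% of all genes). This fit had no term for the replicate number, by which the comparison without GDF11 was taken as paired. With the replicate number as a block, SMAD9 also passed as lower without GDF11 (edgeR adjusted p = 0.00294).

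**Figure D2:**
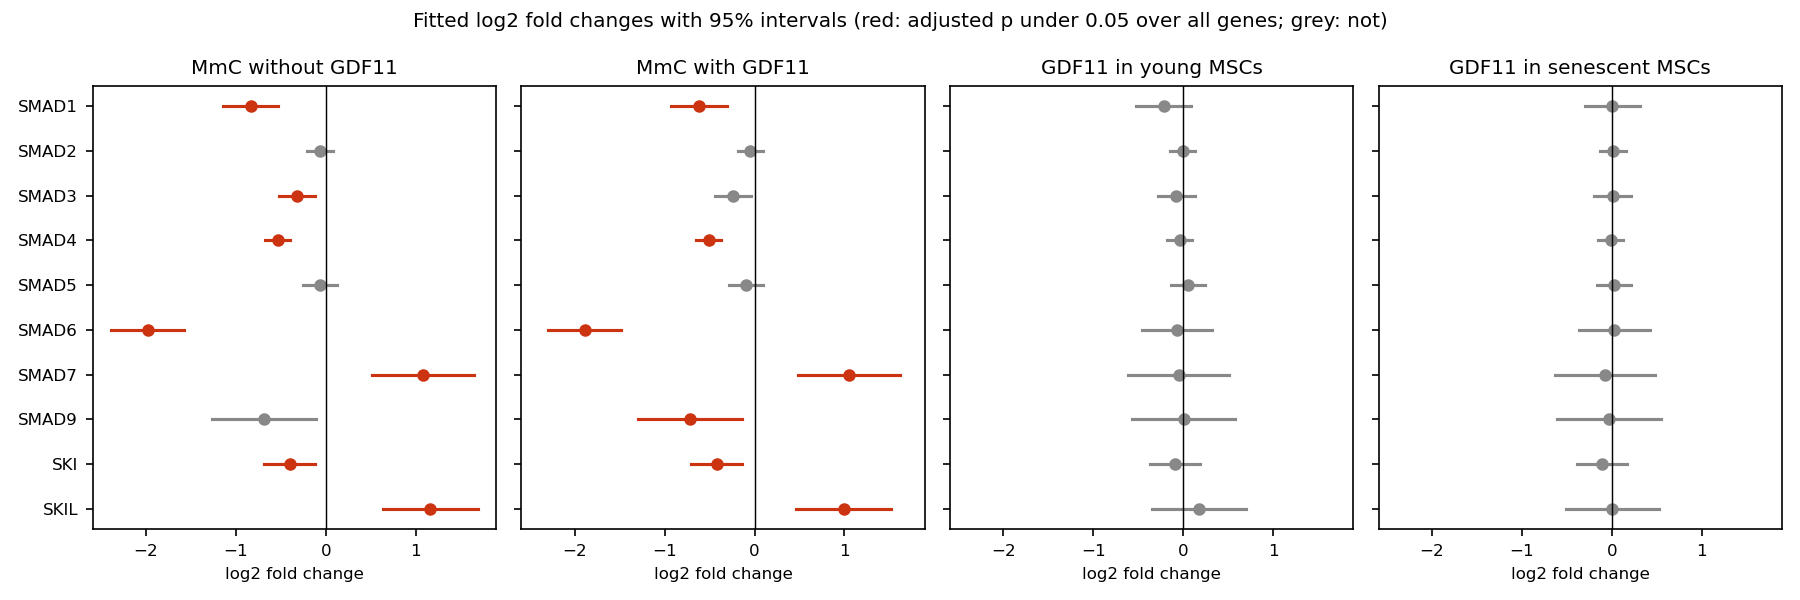
Fitted log2 fold change of each gene (points) with its 95% interval (lines) in 4 comparisons of 4 against 4 libraries; red marks an edgeR adjusted p under 0.05 over all genes. SMAD6 is farthest from 0 in both MmC panels, and all intervals of both GDF11 panels include 0.

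SMAD6 (ENSG00000137834.15, hg38 chromosome 15 from 66702236 to 66782849, plus strand) encodes the inhibitory SMAD that acts mainly on the BMP branch. Its CPM in replicates 1 to 4 was 24.6, 28.8, 30.8 and 33.6 in MmC-/GDF11- and 6.91, 8.29, 6.29 and 8.33 in MmC+/GDF11-. With GDF11 it was 17.0, 34.2, 27.8 and 33.5 in MmC-/GDF11+ and 6.02, 7.66, 7.78 and 8.91 in MmC+/GDF11+. Every MmC+ library lay under every MmC- library, and the lowest MmC- library was replicate 1 with GDF11. The log2 fold change was -1.98 ± 0.19 (SE) without GDF11 (edgeR adjusted p = 1.10e-06) and -1.89 ± 0.19 with it (edgeR adjusted p = 1.76e-06), which is 0.253 and 0.270 times the level without MmC. In size, 93.8% and 93.4% of tested genes changed by as much or less.

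SMAD7 (ENSG00000101665.10, chromosome 18 from 48919853 to 48950965, minus strand) encodes the inhibitory SMAD of both branches, which brings ubiquitin ligases to the receptors. Its CPM was 12.1, 13.1, 13.1 and 12.6 in MmC-/GDF11- and 14.0, 38.2, 30.4 and 25 in MmC+/GDF11-. With GDF11 it was 10.6, 14.1, 10.9 and 13.5 in MmC-/GDF11+ and 14.2, 29.9, 33.0 and 24.6 in MmC+/GDF11+. The groups did not overlap, but replicate 1 of both MmC+ groups lay close to the MmC- libraries and the other 3 well above them. SMAD7 had a log2 fold change of 1.08 ± 0.26 without GDF11 (edgeR adjusted p = 0.00389) and 1.05 ± 0.26 with GDF11 (edgeR adjusted p = 0.00445). The 2 inhibitory SMADs therefore had changes of opposite sign, and their summed level per kilobase relative to the 5 receptor-regulated SMADs was 0.216 ± 0.0187 in MmC-/GDF11- and 0.304 ± 0.119 in MmC+/GDF11-, with overlapping libraries. By canonical transcript length these means were 0.248 and 0.270, nearer to each other.

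SKIL (ENSG00000136603.14, chromosome 3 from 170357342 to 170396835, plus strand) encodes SnoN, a corepressor that is degraded when TGF-beta signals arrive and is then made again as a target gene. Its CPM was 23.9, 18.4, 24.8 and 21.9 in MmC-/GDF11- and 33.2, 65.5, 62.7 and 37.7 in MmC+/GDF11-. With GDF11 it was 26.5, 25, 23.5 and 25.3 in MmC-/GDF11+ and 33.5, 56.3, 73.5 and 36 in MmC+/GDF11+. All MmC+ libraries lay above all MmC- libraries, and within each MmC+ group replicates 2 and 3 were higher than replicates 1 and 4. SKIL had a log2 fold change of 1.16 ± 0.25 without GDF11 (edgeR adjusted p = 0.00143) and 0.99 ± 0.25 with GDF11 (edgeR adjusted p = 0.00409).

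SKI (ENSG00000157933.10, chromosome 1 from 2227388 to 2310213, plus strand), the other corepressor, went down where SKIL went up. Its CPM was 101, 110, 104 and 120 in MmC-/GDF11- and 77.8, 106, 79.4 and 65.9 in MmC+/GDF11-. With GDF11 it was 83.8, 117, 101 and 105 in MmC-/GDF11+ and 71.0, 83.1, 81.4 and 68.3 in MmC+/GDF11+. Replicate 2 of MmC+/GDF11- lay among the MmC- libraries, and the groups with GDF11 did not overlap. The log2 fold change was -0.40 ± 0.13 without GDF11 (edgeR adjusted p = 0.0200) and -0.42 ± 0.13 with GDF11 (edgeR adjusted p = 0.0154). SKI was lower in the MmC+ library of all 4 same-numbered pairs in both comparisons, of which that with GDF11 was taken as unpaired. Without GDF11 the call was lost when MmC-/GDF11- replicate 4 (log2 fold change -0.34, edgeR adjusted p = 0.0641) or MmC+/GDF11- replicate 4 (-0.30, edgeR adjusted p = 0.0779) was left out. The call with GDF11 was lost when MmC-/GDF11+ replicate 2 (-0.34, edgeR adjusted p = 0.0638) or MmC+/GDF11+ replicate 4 (-0.36, edgeR adjusted p = 0.0576) was left out.

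The summed level of both corepressors per kilobase relative to SMAD4 was 6.67 ± 0.404 in MmC-/GDF11- and 9.37 ± 2.2 in MmC+/GDF11-, and with GDF11 it was 6.60 ± 0.419 and 9.01 ± 1.84. This ratio was higher in every MmC+ library (lowest 7.37) than in any MmC- library (highest 7.18). By canonical transcript length its means were 3.30, 4.66, 3.26 and 4.48 in the same order. Without GDF11 the mean per kilobase of exon moved from 16.3 to 12.3 (SKI), 2.74 to 6.13 (SKIL) and 2.85 to 1.97 (SMAD4). With GDF11 these means moved from 15.2 to 11.4, 3.09 to 6.14 and 2.77 to 1.95. The mean of SKI thus fell by more than that of SKIL rose, and the ratio rose with the fall of SMAD4. No test was made on a ratio of several members.

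**Figure D3:**
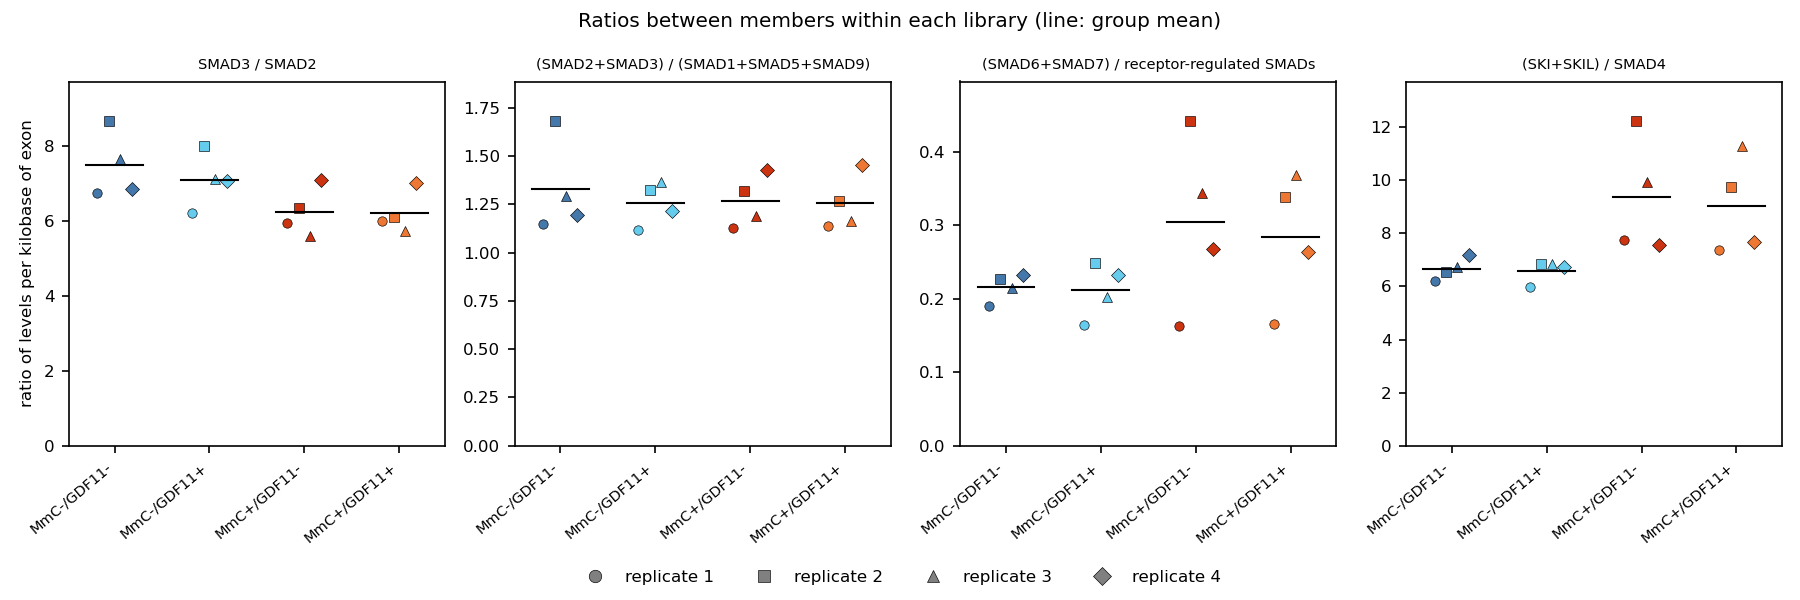
Ratios between members within each library, from levels per kilobase of exon; points are libraries with the replicate number as marker shape, and lines are group means. The ratio of SKI and SKIL to SMAD4 is above 7.18 in all MmC+ libraries, while the ratio of SMAD2 and SMAD3 to SMAD1, SMAD5 and SMAD9 has group means between 1.26 and 1.33.

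SMAD4 (ENSG00000141646.14, chromosome 18 from 51028528 to 51085045, plus strand) is the partner shared by both branches. Its CPM was 56.8, 56.0, 54.2 and 56.4 in MmC-/GDF11- and 39.7, 38.2, 38.7 and 37.6 in MmC+/GDF11-. With GDF11 it was 51.8, 59.1, 51.5 and 54.9 in MmC-/GDF11+ and 39.2, 39, 36.9 and 37.5 in MmC+/GDF11+. The MmC+ libraries lay together and apart from all MmC- libraries. For SMAD4 the log2 fold change was -0.53 ± 0.07 without GDF11 (edgeR adjusted p = 1.05e-05) and -0.51 ± 0.07 with GDF11 (edgeR adjusted p = 1.60e-05), or 0.690 and 0.702 times the level without MmC.

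Of the pair that carries GDF11 and TGF-beta signals, SMAD3 passed as lower after MmC without GDF11 and was at the threshold with GDF11, and SMAD2 passed in neither. SMAD3 (ENSG00000166949.17, chromosome 15 from 67063763 to 67195173, plus strand) had 146, 166, 161 and 145 CPM in MmC-/GDF11- and 121, 119, 113 and 141 CPM in MmC+/GDF11-. With GDF11 it had 129, 154, 150 and 152 CPM in MmC-/GDF11+ and 119, 121, 115 and 143 CPM in MmC+/GDF11+. Replicate 4 was the highest of both MmC+ groups, and with GDF11 it lay above replicate 1 of the MmC- group. SMAD3 had a log2 fold change of -0.32 ± 0.10 without GDF11 (edgeR adjusted p = 0.0118) and -0.24 ± 0.10 with GDF11 (edgeR adjusted p = 0.0522). SMAD3 was lower in the MmC+ library of all 4 same-numbered pairs in both comparisons. With the replicate number as a block it also passed with GDF11 (edgeR adjusted p = 0.0191). The check of pairing described below took the comparison with GDF11 as unpaired. With GDF11 the call was gained too without MmC-/GDF11+ replicate 1 (edgeR adjusted p = 0.0317) or without MmC+/GDF11+ replicate 4 (edgeR adjusted p = 0.0231).

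SMAD2 (ENSG00000175387.16, chromosome 18 from 47808957 to 47931146, minus strand) had between 69.4 and 78.4 CPM in the 4 MmC-/GDF11- libraries and between 67.9 and 74.4 in MmC+/GDF11-. With GDF11 the ranges were 70.1 to 78.4 in MmC-/GDF11+ and 71.7 to 74.0 in MmC+/GDF11+. These ranges overlapped, and the log2 fold change was -0.06 (95% interval -0.20 to 0.08) without GDF11 and -0.05 (-0.19 to 0.09) with it. Per kilobase the ratio of SMAD3 to SMAD2 was 7.50 ± 0.897 without either treatment, 7.11 ± 0.726 with GDF11 alone, 6.25 ± 0.644 with MmC alone and 6.23 ± 0.554 with both, with overlapping libraries. Of the 31-base words in the exons of SMAD2, 11.0% also lie elsewhere on the main chromosomes of hg38, against 0.170% for SMAD3, and reads from such stretches may have been counted or lost.

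On the BMP branch, SMAD1 fell, SMAD5 did not pass and SMAD9 was at the threshold. SMAD1 (ENSG00000170365.10, chromosome 4 from 145481194 to 145559176, plus strand) had 28.3, 18.7, 19.4 and 20.5 CPM in MmC-/GDF11- and 14.8, 12.0, 10.6 and 11.2 CPM in MmC+/GDF11-. With GDF11 it had 21.2, 18.5, 16.4 and 18.5 CPM in MmC-/GDF11+ and 14.6, 11.8, 11.6 and 10.7 CPM in MmC+/GDF11+. Replicate 1 was the highest of each of the 4 groups, and no MmC+ library reached an MmC- library. SMAD1 thus had a log2 fold change of -0.84 ± 0.15 without GDF11 (edgeR adjusted p = 0.000263) and -0.61 ± 0.15 with GDF11 (edgeR adjusted p = 0.00281).

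SMAD5 (ENSG00000113658.18, chromosome 5 from 136132845 to 136188747, plus strand) had between 70.6 and 95.9 CPM in MmC-/GDF11- and between 75.4 and 87.9 in MmC+/GDF11-. With GDF11 the ranges were 87.0 to 97.4 in MmC-/GDF11+ and 81.4 to 87.5 in MmC+/GDF11+. The log2 fold change was -0.06 (95% interval -0.25 to 0.13) without GDF11 and -0.09 (-0.29 to 0.10) with it, so a change of the size seen for SMAD1 lay outside both intervals.

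SMAD9 (ENSG00000120693.14, chromosome 13 from 36844831 to 36920887, minus strand), which encodes the protein known as SMAD8, was the lowest of the 10 genes. It had 5.22, 3.15, 4.53 and 4.20 CPM in MmC-/GDF11- and 4.38, 2.04, 2.01 and 2.21 CPM in MmC+/GDF11-. With GDF11 it had 4.32, 3.94, 3.60 and 5.29 CPM in MmC-/GDF11+ and 4.09, 2.25, 2.01 and 2.13 CPM in MmC+/GDF11+. Replicate 1 of both MmC+ groups lay among the MmC- libraries and the other 3 below them. The log2 fold change was -0.68 ± 0.27 without GDF11 (edgeR adjusted p = 0.0514) and -0.72 ± 0.27 with GDF11 (edgeR adjusted p = 0.0410). The check of pairing described below took the comparison without GDF11 as paired. With the replicate number as a block, the log2 fold change in that comparison was -0.74 (edgeR adjusted p = 0.00294). Without MmC+/GDF11- replicate 1 it was -1.02 (edgeR adjusted p = 0.00283). Leaving out MmC-/GDF11- replicate 2 also brought it past the threshold (edgeR adjusted p = 0.0393). With GDF11 the call was lost in 6 of the 8 fits that left out 1 library, where the highest edgeR adjusted p was 0.123.

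**Figure D4:**
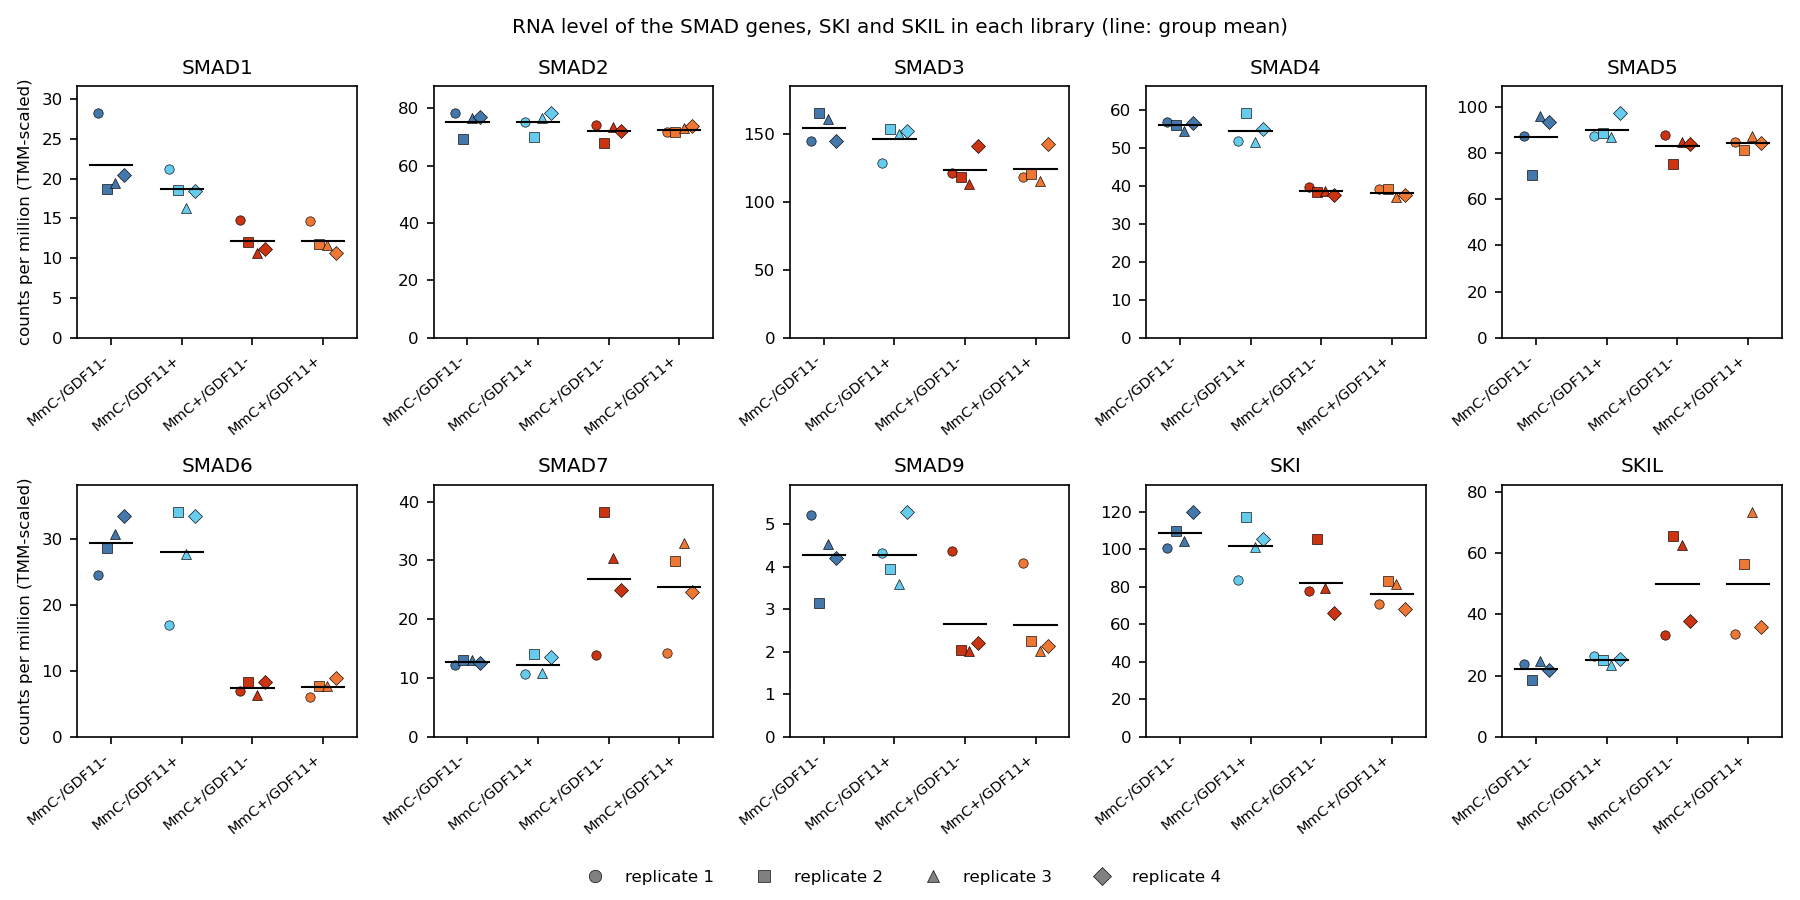
CPM of each of the 10 genes in each library by group, with TMM-scaled library sizes, an axis from 0 and a line at the group mean; the marker shape gives the replicate number. Replicate 1 (circles) of the MmC+ groups is the lowest for SMAD7, at 14.0 and 14.2, and the highest for SMAD9, at 4.38 and 4.09.

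Replicate 1 stood apart for several members. On the log2 scale SMAD1 was 0.26 to 0.53 higher in replicate 1 than in the mean of replicates 2 to 4 of its group, and SMAD9 was 0.03 to 1.06 higher, in 4 of 4 groups each. SMAD3, SMAD6, SMAD7 and SKI were lower in replicate 1 in 4 of 4 groups, SMAD7 by up to -1.14 in log2 terms. Fitted without replicate number 1 in every group, the MmC effect in log2 was 1.27 without and 1.19 with GDF11 for SMAD7, 1.35 and 1.17 for SKIL, -2.02 and -1.97 for SMAD6, and -0.92 and -1.01 for SMAD9. SMAD9 then passed in both comparisons (edgeR adjusted p = 0.000403 and 0.000189), and SMAD3 passed with GDF11 (edgeR adjusted p = 0.0431). The labels give the same batch, a run number, for all 16 libraries and do not say what replicates with one number share. The study names batch effects of a technical kind among its limitations, and their part in these differences was not tested.

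Among replicates some members varied together. With the group means removed, the deviations in log2 CPM over 16 libraries had a Pearson r of 0.80 for SMAD7 and SKIL, 0.79 for SMAD1 and SMAD9, and 0.77 for SMAD2 and SMAD5, while SMAD7 and SMAD9 had -0.79. These are descriptions, since libraries with 1 replicate number may not be independent. The groups also differed in spread, as SMAD7 deviated by -0.068 to 0.046 in MmC-/GDF11- and by -0.85 to 0.60 in MmC+/GDF11-. In replicate 1 of MmC+/GDF11- and MmC+/GDF11+, SMAD7 deviated by -0.85 and -0.77 and SMAD9 by 0.80 and 0.70. These were the largest deviations of both genes. How far r depends on these libraries was not tested. Among 10967 protein-coding genes with a mean log2 CPM of at least 1, the gene most like each member over the 16 libraries, with group differences included, was IL11 for SMAD7 (r = 0.99), MTSS2 for SMAD4 (r = 0.99), RPIA for SMAD6 (r = 0.99), OLFML2A for SMAD1 (r = 0.97), DAPK1 for SMAD9 (r = 0.97), SAMD1 for SKI (r = 0.97), PLAT for SKIL (r = 0.96), STK40 for SMAD3 (r = 0.95), DNAJC13 for SMAD5 (r = 0.92) and PHF3 for SMAD2 (r = 0.91). For the deviations within groups r was 0.97 for SMAD7 and IL11, 0.82 for SMAD6 and RPIA, and 0.72 for SMAD4 and MTSS2, and between 0.87 and 0.94 for the other pairs.

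GDF11 was compared with no GDF11 in young and in senescent MSCs, to see whether the cytokine that uses SMAD2 and SMAD3 changed the RNA of the transducers after 10 days. No member differed. In young MSCs 0 of 10 members passed in edgeR (0% of all genes), 0 of 10 had an unadjusted p under 0.05 (1.18% of all genes), and the groups overlapped for all 10 (0.89% of all genes did not overlap). In senescent MSCs the counts were again 0 of 10 past the adjusted threshold (0% of all genes), 0 of 10 past the unadjusted one (0.503% of all genes) and 0 of 10 without overlap (0.503% of all genes). DESeq2 and limma-voom also called 0 of 10 members in each comparison.

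With the replicate number as a block, 0 members were called in either comparison. The intervals given here come from the fit with 1 mean per group and show what sizes that fit allows. They leave out the replicate number, by which the comparison in senescent MSCs was taken as paired. For SMAD2 the log2 fold change with GDF11 was -0.0042 (95% interval -0.14 to 0.14) in young and 0.01 (-0.13 to 0.15) in senescent MSCs, and for SMAD3 it was -0.08 (-0.28 to 0.13) and 0.0086 (-0.19 to 0.21). SMAD7, the feedback inhibitor, had -0.05 (-0.61 to 0.51) in young and -0.08 (-0.63 to 0.48) in senescent MSCs. SKIL had 0.17 (-0.35 to 0.69) in young MSCs, where its 4 MmC-/GDF11+ libraries had 23.5 to 26.5 CPM and its 4 MmC-/GDF11- libraries 18.4 to 24.8. SMAD1 in young MSCs had -0.22 (-0.53 to 0.09) and was lower with GDF11 in all 4 same-numbered pairs. This comparison was taken as unpaired, and without MmC-/GDF11- replicate 1 the estimate of SMAD1 was -0.063. In senescent MSCs SKI had -0.11 (-0.39 to 0.17).

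Whether the MmC effect depended on GDF11 was tested by the interaction of both treatments. In edgeR 0 of 10 members passed (0% of all genes), and 0 of 10 had an unadjusted p under 0.05 (0.9% of all genes). The interaction was 0.22 in log2 for SMAD1 (95% interval -0.21 to 0.66) and -0.17 for SKIL (-0.91 to 0.56). Leaving out 1 library moved these estimates to between 0.071 (without MmC-/GDF11- replicate 1) and 0.33 for SMAD1, and to between -0.42 (without MmC+/GDF11+ replicate 3) and -0.0063 (without MmC+/GDF11- replicate 2) for SKIL. SMAD9 with GDF11 and SMAD3 without it passed the MmC test in 1 comparison each, and their interactions did not pass.

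Upstream of the SMADs, 13 receptor genes were all tested. Without GDF11, 5 were higher and 2 lower after MmC and 6 did not pass, and with GDF11, 5 were higher, 0 lower and 8 did not pass. The median log2 fold change was 0.32 and 0.33, beside -0.01 over all genes in each comparison. TGFBR1, the type I receptor of TGF-beta that phosphorylates SMAD2 and SMAD3, rose from 41.7 ± 9.55 to 86.8 ± 8.98 CPM without GDF11 (SD, n = 4; log2 fold change 1.06, edgeR adjusted p = 0.000168) and by 1.01 with GDF11 (edgeR adjusted p = 0.000247). The type II receptor TGFBR2 rose by 0.58 and 0.62. Without GDF11 the activin receptor ACVR2B rose by 0.63 (edgeR adjusted p = 0.0392), and with GDF11 the BMP receptor BMPR1B rose by 0.97 (edgeR adjusted p = 0.0498), with overlapping libraries in both cases. ACVR2A fell by 0.26 (edgeR adjusted p = 0.0489) and BMPR1A by 0.25 (edgeR adjusted p = 0.0388) without GDF11. These 4 calls were lost in 6 (ACVR2B), 7 (BMPR1B), 7 (ACVR2A) and 6 (BMPR1A) of the 8 fits that left out 1 library. The highest edgeR adjusted p in these fits was 0.126, 0.12, 0.147 and 0.116. In the other comparison these genes did not pass. With GDF11 the values were 0.57 for ACVR2B (edgeR adjusted p = 0.0602), -0.06 for ACVR2A (0.653) and -0.22 for BMPR1A (0.0640). BMPR1B had 0.91 without GDF11 (edgeR adjusted p = 0.0642). No gene passed the interaction test.

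Of 20 regulators of SMAD turnover and activity, 9 were higher and 3 lower without GDF11, and 9 higher and 4 lower with GDF11, with medians of 0.19 and 0.16. PMEPA1, which sequesters SMAD2 and SMAD3, had the largest change, but rests on 2 to 5 reads in each MmC- library and 18 to 135 in each MmC+ library. Its mean was 0.0328 ± 0.0217 CPM in MmC-/GDF11- and 0.789 ± 0.438 CPM in MmC+/GDF11- (edgeR adjusted p = 4.98e-05), and a fitted fold change from so few reads depends on the prior count. TRIM33, which encodes a ubiquitin ligase that acts on SMAD4, rose by 0.52 and 0.63 and the ubiquitin ligase NEDD4L, which marks phosphorylated SMAD2 and SMAD3 for degradation, by 0.51 and 0.54. Lower in both comparisons were the ligase genes STUB1 (-0.40 and -0.46) and WWP2 (-0.31 and -0.35), and USP4 (-0.27 and -0.28). Leaving out 1 library lost the call without GDF11 in 2 (STUB1) and 1 (USP4) of 8 fits, with edgeR adjusted p up to 0.0634 and 0.0507.

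Among 20 nuclear partners, 19 were tested and RUNX3 was not. The counts were 5 higher and 5 lower without GDF11, and 4 higher and 5 lower with it, and the medians were -0.08 and -0.03. The related corepressors TGIF1 and TGIF2 went apart. TGIF1 rose from 39.5 ± 1.52 to 77.1 ± 15.7 CPM without GDF11 (log2 fold change 0.96 in both comparisons) and TGIF2 fell from 4.75 ± 0.372 to 1.96 ± 0.674 CPM (log2 fold change -1.27 and -1.04). The runt factors RUNX1 (1.00 and 1.18) and RUNX2 (-0.98 and -0.82), the latter a regulator of bone formation, likewise had opposite signs. The acetyltransferase gene KAT2B was lower (-0.86 and -0.76). FOXH1, the partner of SMAD2 in early development, passed as higher at 2 to 29 reads in a library.

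The 20 target genes listed for SMAD2 and SMAD3 had 7 higher and 3 lower without GDF11, and 7 higher and 2 lower with it (medians 0.31 and 0.38). LTBP3, which binds latent TGF-beta, rose from 254 ± 40.8 to 461 ± 73.5 CPM without GDF11 (log2 fold change 0.86, edgeR adjusted p = 4.42e-05) and by 0.87 with GDF11, and CDKN2B, which encodes the cell cycle inhibitor p15, rose by 0.85 and 0.87. In the other direction, the focal adhesion gene TGFB1I1 (-0.98 and -0.97) and the protease gene ADAM12 (-0.80 and -0.73) were lower in both comparisons. COL1A1 was lower without GDF11 (-1.38, edgeR adjusted p = 0.0485), with overlapping libraries. This call was lost in 7 of 8 fits that left out 1 library (edgeR adjusted p up to 0.158). With GDF11 COL1A1 had -1.29 and did not pass (edgeR adjusted p = 0.0612).

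Of 12 target genes listed for SMAD1 and SMAD5, 9 were tested and ID4, MSX2 and DLX5 were not. Without GDF11, 2 were higher and 3 lower, and with GDF11, 3 were higher and 3 lower, with medians of -0.14 and -0.09. ID1, an early target that inhibits differentiation factors, fell from 56.6 ± 16.8 to 14.7 ± 6.58 CPM without GDF11. Its log2 fold change was -1.95 without and -1.97 with GDF11 (edgeR adjusted p = 0.00133 and 0.00118). The transcription factor genes ATOH8 (-1.21 and -1.33) and MSX1 (-0.72 and -0.51) were also lower. The related ID2 and ID3 passed in neither comparison. Without GDF11 ID2 went from 57.0 ± 3.75 to 51.6 ± 8.87 CPM and ID3 from 64.1 ± 14.4 to 56.7 ± 27.5 CPM. All 3 genes that rose encode secreted proteins that bind BMPs: NOG (1.57 and 1.47), BMPER (1.35 and 1.44) and, with GDF11, GREM1 (0.63). GREM1 without GDF11 had 0.55 and did not pass (edgeR adjusted p = 0.0574). Without MmC+/GDF11- replicate 1 the log2 fold change of NOG was 0.89 and its call was lost (edgeR adjusted p = 0.0814). Its value with GDF11 was 0.80 without MmC+/GDF11+ replicate 1 (edgeR adjusted p = 0.114), and the call was lost in 2 of 8 such fits, and that of GREM1 in 4 of 8 (edgeR adjusted p up to 0.0924). For GDF11, edgeR called 0 genes of these 5 lists in either comparison. The lists hold genes of mixed roles, and their counts are read beside the shares of all genes called higher and lower given above.

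**Figure D5:**
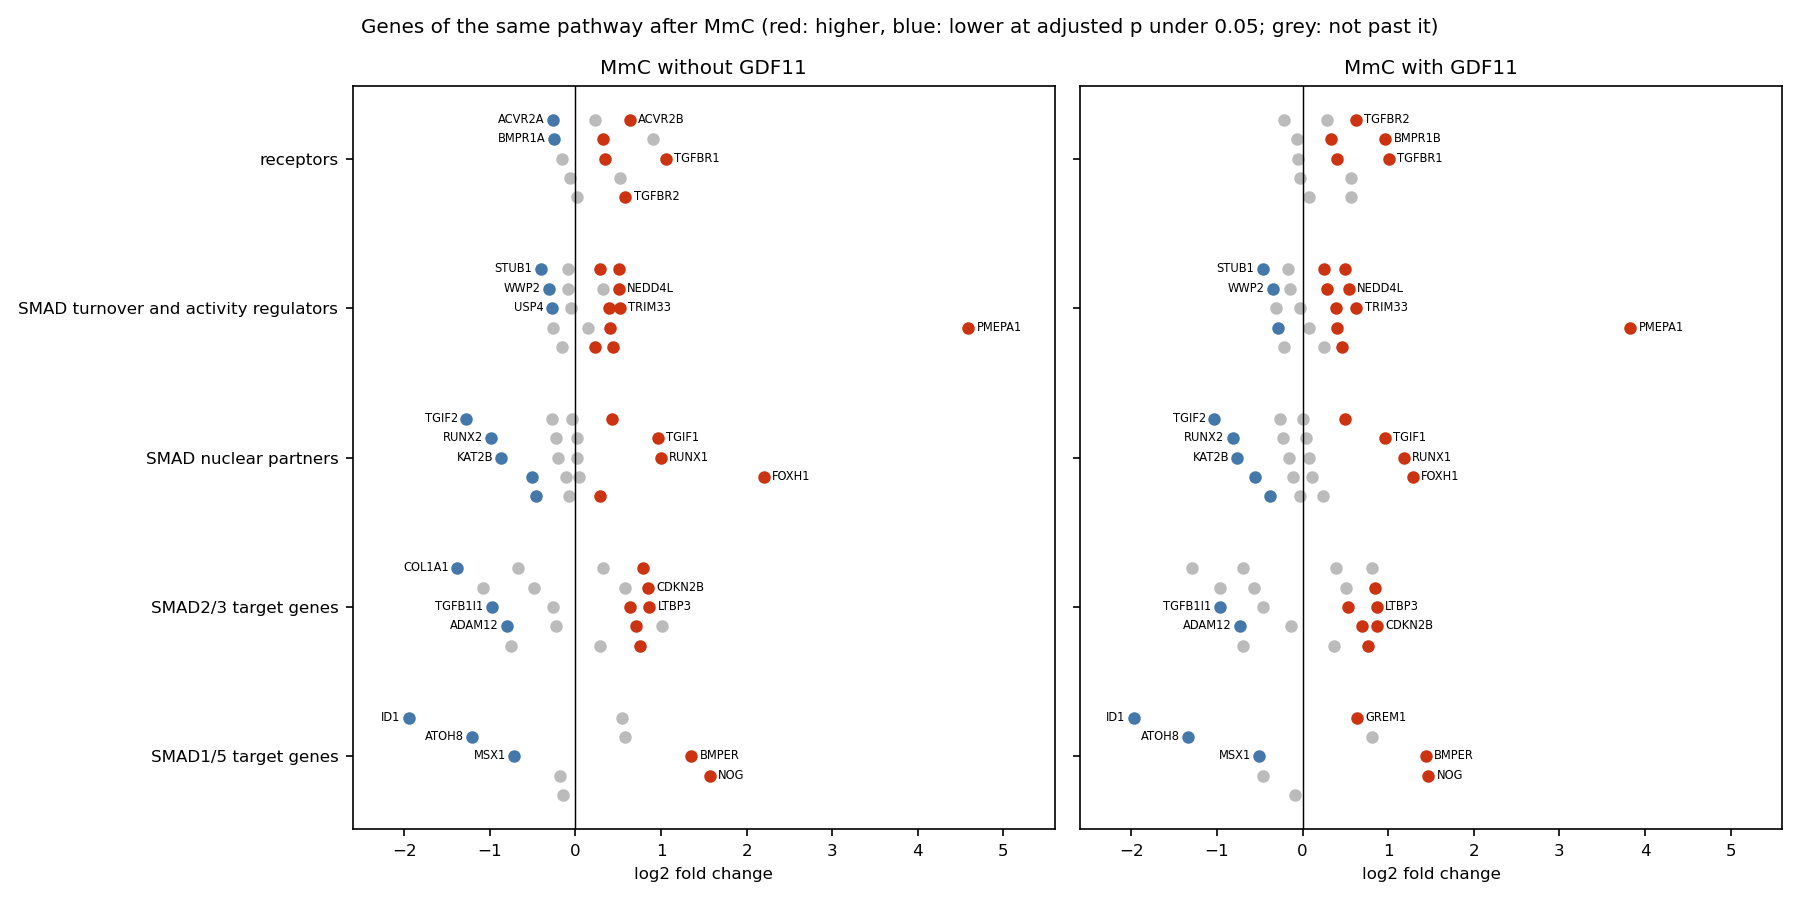
Log2 fold change after MmC of the tested genes of 5 lists, apart from 2 not reported here, without GDF11 on the left and with GDF11 on the right; each point is a gene, red and blue mark an edgeR adjusted p under 0.05, grey marks genes not past it, and the vertical position within a list only separates points. PMEPA1 lies farthest to the right, and ID1 farthest to the left at -1.95 and -1.97.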

How the data were processed

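Poly(A) RNA of 16 libraries of ASC52telo cells was sequenced, 4 in each group. The authors aligned paired reads to hg38 with HISAT2 2.2.1, assigned them to GENCODE V38 genes by featureCounts 2.0.1, and deposited the raw counts without normalization. The library kit kept strand, and the counting's settings for strand and for reads with several alignments are not given in the sources used here. Groups and replicate numbers came from the sample titles, and 0 columns of the table were left out.

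These counts were tested in edgeR 4.0.16 under R 4.3.3 (filterByExpr with minimum count 10 and minimum total 15, TMM, robust quasi-likelihood fit of all 16 libraries with 1 mean per group). Two-sided tests were adjusted by Benjamini-Hochberg over 19103 genes at 0.05, and intervals are 95% intervals of the fit. p-values measure the spread between these cultures, and depth per library was 71275337 to 144204979 counts. No pair of libraries within a group agreed within sampling noise. Alternatives were RLE scaling, no filter, only the libraries compared, the replicate number as a block, limma-voom (limma 3.58.1), DESeq2 1.42.0, CPM on total counts, each library left out in turn, and replicate number 1 left out of every group. The length of the canonical transcript was added after seeing the data.

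Whether replicate numbers pair libraries was checked by the correlation of deviations from group means across genes. Over the 4 pairs the lowest correlation was 0.113 (MmC, no GDF11) and 0.448 (GDF11, senescent MSCs), both taken as paired from the data alone, against 0.0293 (MmC, GDF11 present) and 0.0982 (GDF11, young MSCs), taken as unpaired at a limit of 0.1.

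Gene positions, exon lengths and overlaps came from GENCODE v44 (186 of 60649 identifiers had no match). Genes that overlap a member's exons had at most 0.904% of its count. Promoters came from RefSeq. Named genes are the 10 members, the gene most like each, and per list and MmC comparison the 3 largest rises and 3 largest falls past the threshold, of which some are not reported here. The members and lists were chosen with earlier results of these data known. The scripts were tested on simulated counts. A comparison of protein sequences was not made.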

Additional observations from a re-analysis of the deposited data

Results flagged for a closer look

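Of 40 sets of 4 libraries (10 genes in 4 groups), 3 held a library whose distance from the nearest other library was, as a share of the whole range of its group, above Dixon's 95% critical value. Chance passes this limit in about 1 group in 20. All 3 were replicate 1. SMAD9 was 4.38 CPM in MmC+/GDF11- replicate 1 and 4.09 CPM in MmC+/GDF11+ replicate 1, above the other 3 libraries of each group. SMAD3 was 129 CPM in MmC-/GDF11+ replicate 1, below the other 3. What sets replicate 1 apart was not tested.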

How the results depend on the processing

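The calls of SMAD1, SMAD4, SMAD6, SMAD7 and SKIL after MmC kept their direction and passed in both comparisons under all alternatives run, and so did that of SMAD3 without GDF11. The calls of SKI and SMAD9 were lost under some, and SMAD3 with GDF11 was gained under some. With the replicate number as a block, 8 members passed in each MmC comparison, with 11066 and 11267 genes called (8655 and 8926 without it). SMAD9 passed without GDF11 (edgeR adjusted p = 0.00294) and SMAD3 with GDF11 (edgeR adjusted p = 0.0191), and the block changed no other member's call. SKI was lost without GDF11 when only the libraries compared were fitted (edgeR adjusted p = 0.0504), and SMAD9 with GDF11 without a filter on low counts (edgeR adjusted p = 0.0532). SMAD9 without GDF11 passed in limma-voom (adjusted p = 0.0316) and in DESeq2 (adjusted p = 0.0380). The causes were not tested. CPM on total counts moved no group mean of a member by more than 1 SD.

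For GDF11 in young MSCs DESeq2 called 1 gene, and leaving out 1 library gave 0 to 1 in edgeR. Estimates near 0 changed sign without a call. With replicate number 1 left out of every group SMAD2 in young MSCs was 0.011. Leaving out 1 library gave ranges of -0.042 to 0.028 for SMAD2 and -0.12 to 0.0092 for SMAD7 in young MSCs, and of -0.012 to 0.031 for SMAD2, -0.061 to 0.082 for SMAD3, -0.054 to 0.13 for SMAD6, -0.29 to 0.14 for SMAD7 and -0.20 to 0.034 for SKI in senescent MSCs.

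By canonical transcript length the ratio of SMAD3 to SMAD2 was 11.0, 10.5, 9.20 and 9.17 without treatment, with GDF11 alone, with MmC alone and with both, that of SKI and SKIL to SMAD4 was 3.30, 3.26, 4.66 and 4.48, and that of SMAD6 and SMAD7 to the receptor-regulated SMADs was 0.248, 0.245, 0.270 and 0.254. In the lists, calls of ACVR2A, ACVR2B, BMPR1A, BMPR1B, COL1A1, GREM1, NOG, STUB1 and USP4 were lost in at least 1 fit without 1 library.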
